A study of Homo sapiens with 24 samples.

Results

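The question here was how an inhibitor of the RUVBL1/2 ATPases, CB-6644, altered the RNA held by RUVBL1 once puromycin had been applied. It was read as a difference of ratios. The ratio of GFP beads to uncoupled beads after CB-6644 plus puromycin was set against the same ratio after puromycin alone, for every gene. That comparison took 8 of the 24 libraries of the series, and all 15976 of 28307 genes that passed the filter on low counts were tested. The cells were HCT116, a line of human colorectal carcinoma origin, with GFP knocked in at RUVBL1. RNA was recovered by RNA immunoprecipitation on beads carrying an anti-GFP binder (GFP-Trap, here GFP beads) or on agarose beads without it (uncoupled beads). The 4 groups were GFP beads after CB-6644 plus puromycin, uncoupled beads after CB-6644 plus puromycin, GFP beads after puromycin and uncoupled beads after puromycin, with 2 libraries each. CB-6644 was given at 0.5 µM for 16 h and puromycin at 100 µg/mL for 30 min. Every cell in all 4 groups carried the tagged RUVBL1 and had received puromycin. The labels name no vehicle, do not say whether the line was 1 clone, and do not say that replicates were separate cultures. Each p-value is therefore a measure of the spread among libraries alone, and that spread may be technical.

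RUVBL1 and its partner RUVBL2 are AAA+ ATPases that form ring-shaped hexamers. With RPAP3 and PIH1D1 they make up R2TP, a co-chaperone of HSP90 that helps assemble box C/D snoRNPs, RNA polymerases and the PIKK kinases, and they are also core subunits of the INO80, SRCAP and TIP60 chromatin remodelling complexes. Box C/D snoRNAs guide the 2′-O-methylation of ribosomal RNA, box H/ACA snoRNAs guide its pseudouridylation, and small Cajal body RNAs (scaRNAs) guide the same modifications of spliceosomal snRNAs. Puromycin enters the growing peptide and releases it from the ribosome, so an mRNA held only through its nascent chain should be lost from the beads.

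Total counts in the 8 libraries ranged from 17055648 to 33051512. On the first principal component, which held 24.4% of the variance over the 16 RUVBL1 libraries fitted together, 2 libraries stood apart. GFP beads after CB-6644 plus puromycin replicate 1 lay at 71.98, and GFP beads after CB-6644 alone replicate 2, which does not enter the comparison, lay at 110.5. The next highest library lay at 11.7. The replicate that stood apart also had the lowest summed level of ribosomal protein mRNAs of the 8, at 69240 CPM (counts scaled to library depth and by a TMM factor), against 88200 to 137600 in the other 7. Values without it are given for the calls, for the guide RNA classes and for several of the genes described. The colon epithelial markers summed to 3986 to 5492 CPM in the 8 libraries, and the markers of other cell types to 26.75 to 36.57 CPM. After puromycin the colon epithelial sum was 5338 and 5492 CPM on GFP beads, against 4922 and 4465 CPM on uncoupled beads, with no overlap, whereas after both drugs the bead types overlapped. Its part in the results was not tested. Replicates differed by more than sampling noise in all 4 groups (chi-square divided by its degrees of freedom, 12.9 to 48.9).

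All the genes called higher were small guide RNAs. With edgeR's quasi-likelihood test and Benjamini-Hochberg adjustment at 0.05, 17 genes were called (0.106% of those tested), 12 higher (0.0751%) and 5 lower (0.0313%) in enrichment after CB-6644 plus puromycin than after puromycin. All 12 that rose were box C/D snoRNAs (8) or scaRNAs (4), and all 5 that fell were protein-coding mRNAs. The median change over all genes tested was 0.00 on the log2 scale, with quartiles of -0.44 and 0.39. At an unadjusted p under 0.05 there were 337 genes higher and 1022 lower. DESeq2 called 127 genes, of which 46 were higher (27 box C/D snoRNAs, 8 scaRNAs and 11 others) and 81 lower, and these included all 17. With replicate 1 of GFP beads after CB-6644 plus puromycin left out, 8 of the 12 higher calls remained and 0 of the 5 lower ones. With both libraries that stood apart left out, 126 genes were called, and all 17 were among them. More RNA per RUVBL1, more of that RNA in the cell, and more cells holding it cannot be told apart in these bulk libraries.

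**Figure D1:**
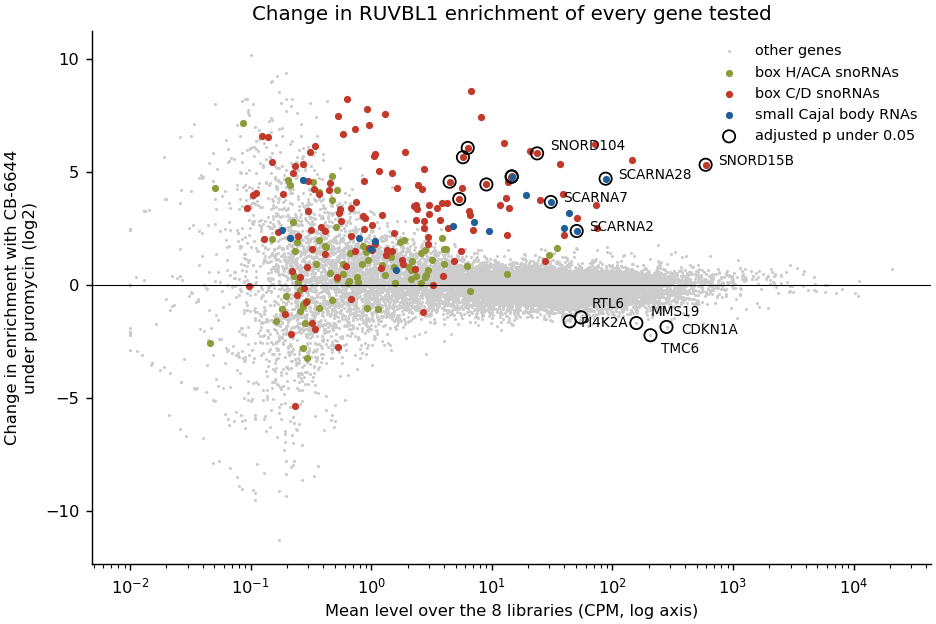
Change in RUVBL1 enrichment with CB-6644 under puromycin (log2, vertical) for each of the 15976 genes tested against its mean level over the 8 libraries (CPM, log axis). Rings mark the 17 genes with an adjusted p under 0.05: the 12 above zero are box C/D snoRNAs (red) or scaRNAs (blue), the 5 below zero are mRNAs, and box H/ACA snoRNAs (green) carry no ring.

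Box C/D snoRNAs as a class were far more abundant in one group than in the others. Their summed level was 6582 and 4679 CPM on GFP beads after CB-6644 plus puromycin, against 161.0 and 224.2 CPM on uncoupled beads of that treatment. After puromycin it was 137.4 and 206.3 CPM on GFP beads, against 106.5 and 108.0 CPM on uncoupled beads. Both GFP libraries of the inhibited cells lay above the other 6, which ranged from 106.5 to 224.2 CPM. The ratio of GFP to uncoupled beads was 29.2 after CB-6644 plus puromycin and 1.6 after puromycin, a ratio of ratios of 18.2. One snoRNA, SNORD15B, carried a large share of the sum. Without it the class still summed to 3870 and 2746 CPM on GFP beads after CB-6644 plus puromycin, against 140.1 and 186.5 CPM on uncoupled beads.

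The scaRNAs followed the same pattern at lower levels. They summed to 1233 and 834.9 CPM on GFP beads after CB-6644 plus puromycin, against 88.71 and 89.03 CPM on uncoupled beads, and to 58.36 and 73.24 CPM on GFP beads after puromycin, against 62.1 and 64.33 CPM on uncoupled beads. Again both GFP libraries of the inhibited cells lay above the other 6. The bead ratio was 11.6 after both drugs and 1.04 after puromycin.

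**Figure D2:**
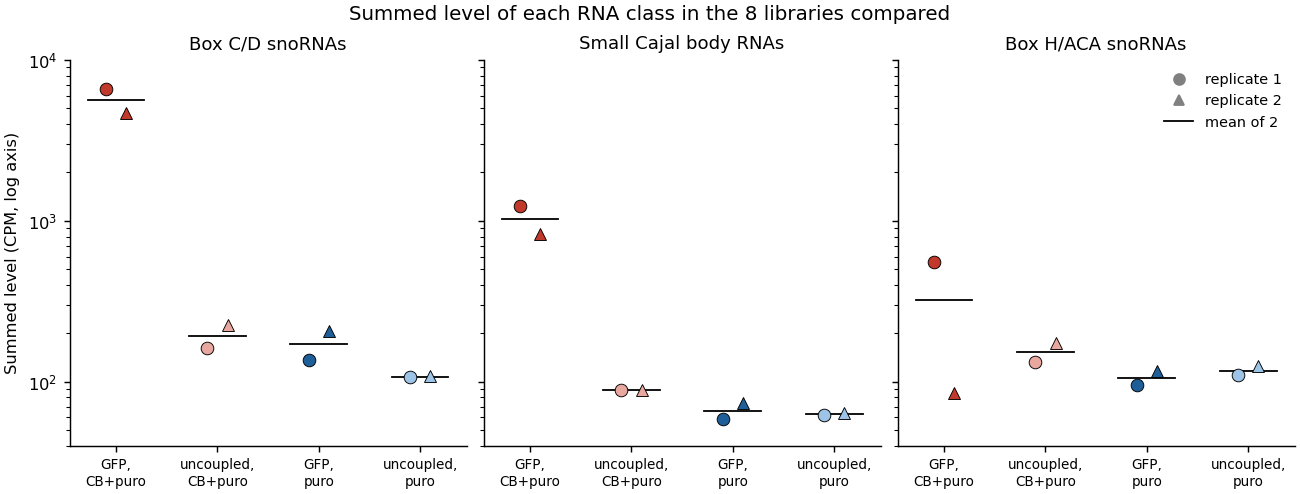
Summed level of box C/D snoRNAs, scaRNAs and box H/ACA snoRNAs (CPM, log axis) in each of the 8 libraries, with the mean of 2 as a line. For box C/D snoRNAs and scaRNAs both replicates on GFP beads after CB-6644 plus puromycin (CB+puro) lie above all other libraries, while for box H/ACA snoRNAs replicate 1 of that group is the highest library and replicate 2 the lowest.

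SNORD15B, which guides methylation of 28S rRNA, had the highest level of the 12. It lies within the span of RPS3 on chromosome 11, at positions 75404421 to 75404566 of GRCh38.p14. Its level was 2712 and 1933 CPM on GFP beads after CB-6644 plus puromycin, against 20.94 and 37.76 CPM on uncoupled beads. After puromycin it was 9.417 and 13.38 CPM on GFP beads, against 7.251 and 4.175 CPM on uncoupled beads. The groups did not overlap, and the uncoupled beads themselves held more of it when CB-6644 was present. The log2 enrichment was 6.31 ± 0.42 (SE, 2 libraries against 2) after both drugs and 0.99 ± 0.37 after puromycin. Here and throughout, the SE comes from the test's F statistic, whose variance is pooled over 16 libraries and moderated across genes. The change was 5.32 ± 0.52, a 40.03-fold difference of ratios, with an edgeR adjusted p of 8.44e-06. Without the replicate that stood apart it was 5.05.

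SNORD104 and SNORD35A changed by as much at far lower levels. SNORD104, within the SNHG25 span on chromosome 17, had 77.43 and 91.0 CPM on GFP beads after CB-6644 plus puromycin, against 1.483 and 2.075 CPM on uncoupled beads. Puromycin alone gave 2.745 and 5.425 CPM on GFP beads, against 5.45 and 4.117 CPM on uncoupled beads. The change was 5.83 ± 0.80 with an edgeR adjusted p of 0.0173. SNORD35A, a 28S rRNA guide within the RPL13A span at positions 49491175 to 49491260 of chromosome 19, had 468 and 431 counts on GFP beads after CB-6644 plus puromycin, against 6 and 6 counts on uncoupled beads. With puromycin alone there were 13 and 24 counts on GFP beads, against 18 and 2 counts on uncoupled beads. Only the GFP libraries of the inhibited cells stood out from the other 6, and the bead types overlapped after puromycin alone. Its change was 6.07 ± 1.09 with an adjusted p of 0.0379. With 1 of the 8 libraries left out at a time, each was still called in 2 of 8 fits. SNORD104 was called without either replicate of GFP beads after puromycin, and its change lay between 5.39 and 6.37 with adjusted p-values up to 0.223. SNORD35A was called without replicate 2 of GFP beads or of uncoupled beads after puromycin, and its change lay between 3.93 and 6.94, the lowest without replicate 1 of uncoupled beads after puromycin.

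SNORD89 and SNORD58A had clear changes from low levels. SNORD89, within the RNF149 span on chromosome 2, had 454 and 367 counts on GFP beads after CB-6644 plus puromycin, against 13 and 13 counts on uncoupled beads. After puromycin the GFP beads gave 10 and 9 counts, against 9 and 8 counts on uncoupled beads. The change of 5.66 ± 0.73 (edgeR adjusted p of 0.000297) was called in each of the 8 fits without 1 library. SNORD58A, within the RPL17 span on chromosome 18, had 526 and 680 counts on GFP beads after CB-6644 plus puromycin, against 29 and 28 counts on uncoupled beads. Puromycin alone gave 58 and 32 counts on GFP beads, against 28 and 22 counts on uncoupled beads. Its change was 4.45 ± 0.70 with an edgeR adjusted p of 0.00629. That call was lost without GFP beads after puromycin replicate 2 (adjusted p = 0.0834), without uncoupled beads after CB-6644 plus puromycin replicate 1 (0.108) and without uncoupled beads after puromycin replicate 1 (0.0727).

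SNORD12B and SNORD43 had the least stable calls of the 12. SNORD12B, within the ZFAS1 span on chromosome 20, had 16.51 and 17.96 CPM on GFP beads after CB-6644 plus puromycin, against 0.565 and 1.012 CPM on uncoupled beads. Puromycin alone gave SNORD12B 1.83 and 2.345 CPM on GFP beads, against 1.2 and 1.43 CPM on uncoupled beads, and its change was 3.81 ± 0.75 (edgeR adjusted p of 0.0447). SNORD43, an RPL3 intragenic snoRNA that fell under the 5 CPM mean used to choose named genes and is named because it was called, had 11.76 and 11.56 CPM on GFP beads after CB-6644 plus puromycin, against 0.7063 and 1.367 CPM on uncoupled beads. Its change was 4.57 ± 0.82 (edgeR adjusted p of 0.0251). For both, the GFP libraries of the inhibited cells lay above the other 6, and 0 of 8 fits without 1 library called either, although the fit without both libraries that stood apart did. The highest adjusted p over all alternatives was 0.309 for SNORD12B and 0.252 for SNORD43.

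SNORD3C, a copy of the U3 snoRNA that takes part in pre-rRNA cleavage, was already enriched after puromycin, as was SCARNA2 among the 12. It had 875 and 1151 counts on GFP beads after CB-6644 plus puromycin, against 11 and 3 counts on uncoupled beads. With puromycin alone it had 138 and 89 counts on GFP beads, against 7 and 16 counts on uncoupled beads. Both GFP groups lay above both uncoupled groups. The log2 enrichment was 7.52 ± 0.51 after both drugs and 2.71 ± 0.46 after puromycin, and the change was 4.81 ± 0.72 (edgeR adjusted p of 0.00305). The call was lost without uncoupled beads after puromycin replicate 2 (change of 3.99, adjusted p = 0.158). U3 has near-identical copies in the genome, and how reads with several placements were counted is not given in the sources used here, so the split between copies is uncertain. SNORD3A, another copy named after its values were seen, had 483.6 and 47.31 CPM on GFP beads after CB-6644 plus puromycin, against 5.685 and 9.769 CPM on uncoupled beads, and was not called (change of 2.52 ± 1.54).

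**Figure D3:**
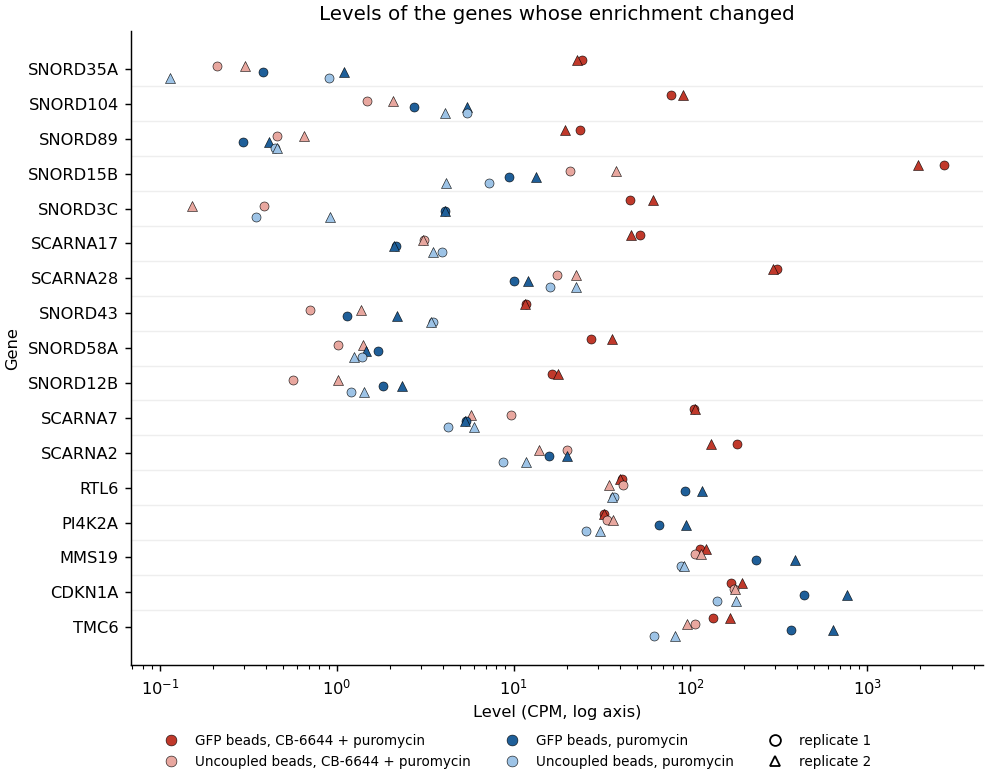
Level (CPM, log axis) of the 17 called genes in each of the 8 libraries, circles for replicate 1 and triangles for replicate 2. For the 12 snoRNAs and scaRNAs the dark red points (GFP beads, CB-6644 plus puromycin) lie to the right of all others, whereas for the 5 mRNAs the dark blue points (GFP beads, puromycin) do.

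Among the scaRNAs, SCARNA28 had the smallest adjusted p of all genes. It lies within the span of TRRAP at positions 98881697 to 98881890 of chromosome 7. Its level was 306.9 and 294.0 CPM on GFP beads after CB-6644 plus puromycin, against 17.66 and 22.57 CPM on uncoupled beads. After puromycin it was 10.01 and 12.05 CPM on GFP beads, against 16.05 and 22.42 CPM on uncoupled beads. After puromycin SCARNA28 was thus lower on GFP than on uncoupled beads (log2 enrichment -0.80 ± 0.24, adjusted p = 0.0283) and higher after both drugs (3.90 ± 0.26). The change was 4.71 ± 0.35, a 26.11-fold difference of ratios, with an edgeR adjusted p of 3.33e-08. It lay between 4.44 and 4.92 over the 8 fits without 1 library.

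SCARNA7, SCARNA17 and SCARNA2, all of the box C/D type, completed the called scaRNAs. SCARNA7, which guides methylation of U1 snRNA and lies within the KPNA4 span on chromosome 3, had 104.3 and 105.6 CPM on GFP beads after CB-6644 plus puromycin, against 9.676 and 5.77 CPM on uncoupled beads. After puromycin it had 5.402 and 5.333 CPM on GFP beads, against 4.25 and 5.947 CPM on uncoupled beads, and the change was 3.68 ± 0.41 (edgeR adjusted p of 2.94e-05). Its levels on the 2 bead types overlapped after puromycin and were far apart after both drugs. SCARNA17 had 999 and 872 counts on GFP beads after CB-6644 plus puromycin, against 88 and 61 counts on uncoupled beads. Puromycin alone gave 73 and 46 counts on GFP beads, against 79 and 61 counts on uncoupled beads, and the change was 4.79 ± 0.61 (edgeR adjusted p of 0.00177). Again the bead types overlapped only after puromycin alone.

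SCARNA2, a guide for U2 snRNA that has no host gene in the annotation used, changed least of the 12. Its level was 183.4 and 130.1 CPM on GFP beads after CB-6644 plus puromycin, against 19.95 and 14.02 CPM on uncoupled beads. After puromycin it was 15.85 and 20.18 CPM on GFP beads, against 8.751 and 11.72 CPM on uncoupled beads. SCARNA2 was already enriched after puromycin, by 0.81 ± 0.27 (adjusted p = 0.0469), and rose to 3.20 ± 0.28 after both drugs. The change was 2.39 ± 0.38 (edgeR adjusted p of 0.00467). Without uncoupled beads after CB-6644 plus puromycin replicate 2 it was 2.15 and missed the threshold (adjusted p = 0.0626).

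The table held 357 box C/D snoRNAs. Of these, 163 had no count in any RUVBL1 library and 134 passed the filter, some of them only through the group in which they were high, so the tested snoRNAs stand for the detected part of the class. The 8 called were 8 of 134 tested, where 0.0751% of all genes tested were called higher. The median change was 3.37 (quartiles 1.68 and 4.75), against 0.00 over all genes, and 122 were above zero. Among the 61 that averaged at least 10 counts outside the GFP groups given CB-6644, the median was 3.16 and 59 were above zero. In 116 of 134, and in 125 of the 357 in the table, both GFP libraries after CB-6644 plus puromycin lay above the 6 other libraries. That held for 949 of all genes tested (5.94%). Leaving out the replicate that stood apart gave a median of 3.24.

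Several abundant box C/D snoRNAs that missed the threshold, named after their values were seen, had values of the same size as those called. SNORD17 had 813.9 and 281.5 CPM on GFP beads after CB-6644 plus puromycin, against 12.11 and 17.92 CPM on uncoupled beads, and a change of 5.54 ± 0.90 (edgeR adjusted p of 0.0725). SNORD76, 1 of 9 snoRNAs within GAS5, had 250.7 and 311.7 CPM on GFP beads after CB-6644 plus puromycin, against 2.013 and 3.088 CPM on uncoupled beads, and a change of 6.25 ± 1.21 (adjusted p of 0.126). After puromycin SNORD17 lay between 4.93 and 7.701 CPM and SNORD76 between 0.4003 and 1.563 CPM on both bead types.

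A minority behaved otherwise. SNORD101 had 7.001 and 4.689 CPM on GFP beads after CB-6644 plus puromycin, against 2.578 and 3.543 CPM on uncoupled beads, and its change was 0.01 ± 0.79 (95% interval -1.62 to 1.64). SNORD31 and SNORD83B were already enriched after puromycin. SNORD83B was called in both treatments, with a log2 enrichment of 4.13 ± 0.63 after CB-6644 plus puromycin and 3.74 ± 0.76 after puromycin, a change of 0.39 ± 1.15. For SNORD31 the same values were 2.60 ± 0.71 (not called, adjusted p of 0.147) and 3.82 ± 0.91 (adjusted p of 0.0083), a change of -1.22 ± 1.15. These 3 were also chosen after their values were seen, and their intervals are wide.

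Of the 29 scaRNAs in the table, 17 were tested and 4 were called, where 0.0751% of all genes tested were called higher. All 17 had a change above zero, with a median of 2.50, but some may have passed the filter only through the group in which they were high. Among the 14 that averaged at least 10 counts outside the GFP groups given CB-6644, the median was 2.55 and 14 were above zero. The scaRNAs with a box C/D part and an H/ACA part, SCARNA5, SCARNA6, SCARNA10 and SCARNA12, had changes of 2.38, 2.78, 2.50 and 3.20. None of the 4 passed edgeR's threshold with all libraries, although SCARNA10 and SCARNA12 did in DESeq2. SCARNA12 had 214.3 and 86.69 CPM on GFP beads after CB-6644 plus puromycin, against 11.41 and 14.43 CPM on uncoupled beads, so the groups did not overlap. SCARNA1, of the H/ACA type, had 1.985 and 2.025 CPM on GFP beads after CB-6644 plus puromycin, against 2.154 and 1.721 CPM on uncoupled beads. Its change of 0.66 ± 1.02 was the smallest of the 17, so SCARNA1 does not stand for others of its type. SCARNA4, SCARNA8, SCARNA22 and SCARNA23, for example, changed by 4.63, 2.06, 1.59 and 2.44, and none of these was called. The scaRNAs described by name in this paragraph were chosen after their values were seen.

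Box H/ACA snoRNAs gave no calls, where 0.106% of all genes tested were called. Of 182 in the table, 79 were tested and 0 were called by edgeR (1 had an unadjusted p under 0.05, and it was higher) or by DESeq2. The summed level was 556.6 and 85.2 CPM on GFP beads after CB-6644 plus puromycin, against 132.2 and 175.0 CPM on uncoupled beads. After puromycin it was 95.38 and 116.0 CPM on GFP beads, against 109.7 and 124.9 CPM on uncoupled beads. Replicate 1 of GFP beads after CB-6644 plus puromycin, the library that stood apart, was the highest of the 8 and replicate 2 the lowest, a ratio of 6.53 between replicates, against 1.41 for box C/D snoRNAs and 1.48 for scaRNAs. SNORA73B, named after its values were seen, had 167.5 and 5.435 CPM in those replicates. The median change of 0.83 became -1.23 without replicate 1. Both GFP libraries lay above the other 6 in 3 of 79, where that held for 5.94% of all genes tested. The other library that stood apart, GFP beads after CB-6644 replicate 2, also had a high H/ACA sum, at 955.8 CPM, against 61.61 CPM in its replicate 1.

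Most guide RNAs of human cells lie in introns of other genes, and the tested genes that hold them had lower median changes than the guide RNAs. For 123 tested box C/D snoRNAs within the span of 65 tested genes (strand not considered), the median change was 3.38 for the snoRNAs and 0.20 for the hosts. The snoRNA's change was above its host's in 106 of 123. Of the hosts, 0 were called by edgeR, which says little where only 0.106% of all genes tested were called. The changes of the hosts ran from -1.48 to 1.56. In a separate list of 29 tested snoRNA host genes, 5 were higher and 0 lower at an unadjusted p under 0.05, against 337 and 1022 of all 15976 genes. DESeq2 called SNHG1 higher. For 14 scaRNAs in 13 hosts the medians were 2.55 and 0.01, and all 14 lay above their hosts. RPS3, the host of SNORD15B, changed by -0.31 ± 0.46, RPL13A, the host of SNORD35A, by -0.01 ± 0.48 and TRRAP, the host of SCARNA28, by -0.69 ± 0.44. SnoRNAs of the same host could differ widely: the 9 within GAS5 ranged from 0.37 to 7.77, and the 4 within RPL3 from -1.29 to 4.57. Reads of a host intron and of the snoRNA in it could not be separated, and the annotation used gives gene spans, not introns.

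**Figure D4:**
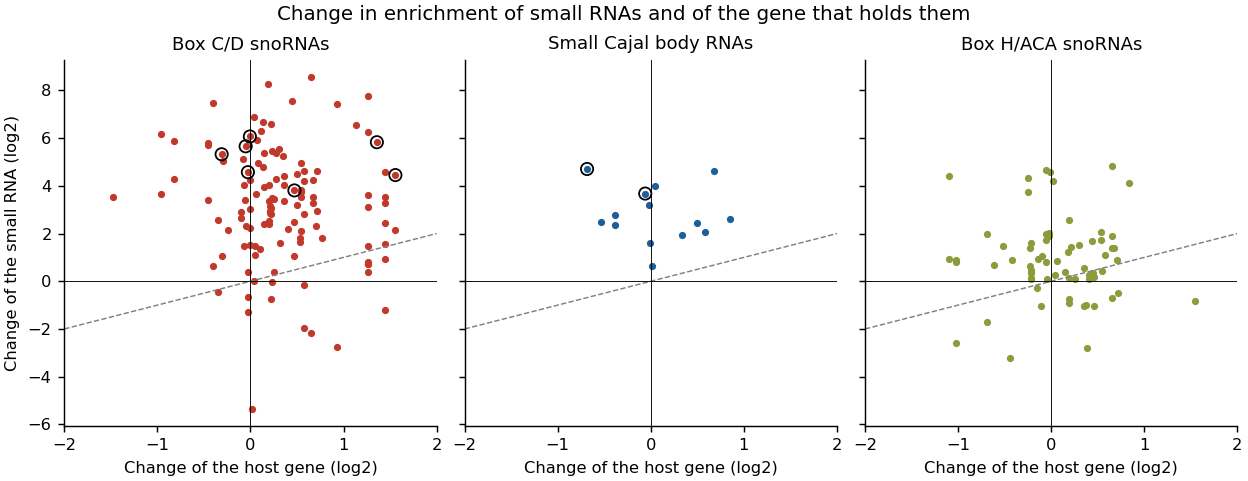
Change in enrichment with CB-6644 under puromycin (log2) of each guide RNA (vertical) against that of the gene whose span holds it (horizontal). The dashed line marks equal change, and rings mark called guide RNAs: 106 of 123 box C/D snoRNAs and all 14 scaRNAs lie above it, while hosts stay between -1.48 and 1.56.

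The 5 mRNAs that fell were all enriched on GFP beads after puromycin, and none was called as enriched when CB-6644 was also present. TMC6, which encodes a transmembrane channel-like protein, had 133.4 and 168.3 CPM on GFP beads after CB-6644 plus puromycin, against 106.6 and 95.72 CPM on uncoupled beads. With puromycin alone TMC6 had 369.1 and 636.7 CPM on GFP beads, against 62.05 and 81.66 CPM on uncoupled beads. The 2 GFP libraries after puromycin were the highest of the 8, and after both drugs the GFP libraries still lay above the uncoupled ones. The log2 enrichment was 0.58 ± 0.28 after both drugs and 2.81 ± 0.30 after puromycin, and the change was -2.23 ± 0.40 (edgeR adjusted p of 0.0173). The call was lost in 4 of 8 fits without 1 library, those without replicate 1 of GFP beads after CB-6644 plus puromycin (adjusted p = 0.115), replicate 2 of GFP beads after puromycin (0.22), replicate 1 of uncoupled beads after CB-6644 plus puromycin (0.108) and replicate 1 of uncoupled beads after puromycin (0.221).

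CDKN1A, which encodes the CDK inhibitor p21 and is a target of p53, had 168.8 and 194.8 CPM on GFP beads after CB-6644 plus puromycin, against 175.5 and 177.6 CPM on uncoupled beads. With puromycin alone CDKN1A had 440.6 and 765.6 CPM on GFP beads, against 140.8 and 181.4 CPM on uncoupled beads. The bead types overlapped after both drugs, where the log2 enrichment was 0.04 ± 0.25, and were well apart after puromycin, where it was 1.90 ± 0.26. The change was -1.86 ± 0.36 (edgeR adjusted p of 0.0346). On uncoupled beads CDKN1A differed by 0.13 ± 0.25 between the treatments.

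MMS19, whose protein delivers iron-sulfur clusters, and PI4K2A, a phosphatidylinositol 4-kinase, lie near each other on chromosome 10 (positions 97458324 to 97498794 and 97640671 to 97676434). MMS19 had 113.3 and 123.3 CPM on GFP beads after CB-6644 plus puromycin, against 105.6 and 114.9 CPM on uncoupled beads. After puromycin MMS19 had 235.8 and 389.3 CPM on GFP beads, against 88.66 and 91.9 CPM on uncoupled beads, and the change was -1.69 ± 0.34 (edgeR adjusted p of 0.0448). Again only the GFP libraries after puromycin stood out. PI4K2A had 32.5 and 32.66 CPM on GFP beads after CB-6644 plus puromycin, against 33.62 and 36.34 CPM on uncoupled beads. After puromycin PI4K2A had 66.42 and 94.71 CPM on GFP beads, against 25.55 and 30.88 CPM on uncoupled beads, and the change was -1.62 ± 0.30 (edgeR adjusted p of 0.0259). RTL6, a gene derived from a retrotransposon Gag sequence, showed the same order of groups, with 41.12 and 39.85 CPM on GFP beads after CB-6644 plus puromycin and 92.63 and 115.7 CPM on GFP beads after puromycin. Its change was -1.44 ± 0.28 (edgeR adjusted p of 0.0444).

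Those 4 mRNAs were called in 1 of 8 fits without 1 library, the fit without GFP beads after puromycin replicate 1. Without replicate 1 of GFP beads after CB-6644 plus puromycin the changes were -1.77 for CDKN1A, -1.64 for MMS19, -1.62 for PI4K2A and -1.47 for RTL6, with adjusted p-values of 0.192, 0.225, 0.12 and 0.179. The direction was the same in all 19 alternatives for each of the 5 mRNAs.

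Below the threshold lay 7 mRNAs with an edgeR adjusted p of 0.0538 to 0.0951, chosen by smallest p and not called. BHLHA15, TMEM250, FAN1, a DNA repair nuclease, and OBI1, a ubiquitin ligase of replication origins, had changes of -1.71 ± 0.35, -1.68 ± 0.35, -1.72 ± 0.36 and -1.83 ± 0.38. FAN1 had 47.7 and 57.01 CPM on GFP beads after CB-6644 plus puromycin, against 27.83 and 23.59 CPM on uncoupled beads. After puromycin FAN1 had 116.0 and 219.9 CPM on GFP beads, against 26.6 and 23.62 CPM on uncoupled beads. It kept a log2 enrichment of 1.02 ± 0.25 after both drugs (adjusted p = 0.075), where OBI1 had 0.11 ± 0.27.

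Fewer genes were called as enriched after both drugs than after puromycin. After puromycin 2201 genes (13.8%) differed between GFP and uncoupled beads, 1590 higher (9.95%) and 611 lower (3.82%). After CB-6644 plus puromycin 89 genes (0.557%) did, all of them higher. Of the genes lower on GFP beads after both drugs, edgeR called 0 and DESeq2 called 3; at an unadjusted p under 0.05 there were 1364 genes in either direction. The fits with 1 library left out gave 307 to 1356 calls after puromycin and 18 to 67 after both drugs. The lowest counts came without replicate 1 of uncoupled beads of that treatment in both. With 15 mRNAs recovered more after puromycin, a list drawn from these same libraries and so no independent evidence, all 15 had a change below zero, the median was -1.10, and 2 were called lower (TMC6 and CDKN1A). DESeq2 called 6 of the 15 lower, the others being FAN1, CD2BP2, GCN1 and HYOU1.

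Read on GFP beads alone, CB-6644 plus puromycin against puromycin, 308 genes (1.93%) differed, 130 higher (0.814%) and 178 lower (1.11%). The 130 higher comprised 53 box C/D snoRNAs, 10 scaRNAs, 0 box H/ACA snoRNAs and 67 other genes, and none of the 178 lower was a guide RNA. On uncoupled beads the same contrast called 1 gene (0.00626%), SNORD15B, which was higher by 2.35 ± 0.37 (edgeR adjusted p of 0.0399), while 653 genes had an unadjusted p under 0.05 and DESeq2 called 14. This call was lost in 10 of 15 alternatives, among them the fits without uncoupled beads after CB-6644 plus puromycin replicate 2 and without either replicate of uncoupled beads after puromycin.

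The 89 genes enriched after both drugs comprised 52 box C/D snoRNAs, 8 scaRNAs and 29 other genes, of which 28 were protein-coding. The 12 called guide RNAs were among them. The 29 were named only in part by the rule and otherwise after their values were seen. CENPE, a kinetochore motor, had 104.2 and 94.36 CPM on GFP beads after CB-6644 plus puromycin, against 31.64 and 37.1 CPM on uncoupled beads. After puromycin CENPE had 43.01 and 25.52 CPM on GFP beads, against 35.75 and 35.4 CPM on uncoupled beads. The GFP libraries of the inhibited cells lay above all others. CENPE's enrichment was 1.53 ± 0.24 after both drugs (edgeR adjusted p of 0.00128) and -0.05 ± 0.24 after puromycin, and the change of 1.58 ± 0.34 was not called (adjusted p of 0.0675). It passed in DESeq2 and without both libraries that stood apart (adjusted p = 0.0322), and not without replicate 1 of its own group (0.225).

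Golgins, coiled-coil tethers of the Golgi, gave 3 of the 89 from 11 tested, where 0.557% of all genes tested were enriched. GOLGA4 had 466.8 and 539.6 CPM on GFP beads after CB-6644 plus puromycin, against 155.9 and 140.6 CPM on uncoupled beads, an enrichment of 1.76 ± 0.35 (edgeR adjusted p of 0.0109). After puromycin it had 187.3 and 123.2 CPM on GFP beads, against 159.6 and 149.9 CPM on uncoupled beads, an enrichment of 0.01 ± 0.34. GOLGB1 was enriched by 1.48 ± 0.28 after both drugs. TRIP11 had 85.32 and 83.7 CPM on GFP beads after CB-6644 plus puromycin, against 41.74 and 35.99 CPM on uncoupled beads. The changes were 1.76 ± 0.48 for GOLGA4, 1.41 ± 0.39 for GOLGB1 and 1.47 ± 0.32 for TRIP11. Of 11 golgins tested 0 were called in the change by edgeR, and DESeq2 called GOLGA4 and TRIP11. At an unadjusted p under 0.05, 4 of the 11 were higher and 0 lower, against 337 higher and 1022 lower of all 15976 genes. The median of the 11 was 0.37.

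Others of the 29 were AKAP9, a centrosome scaffold (enrichment of 1.70 ± 0.25 after both drugs, change of 1.56 ± 0.35), RAD50 of the MRN complex (1.51 ± 0.27 and 1.67 ± 0.38), DSP, the desmosomal desmoplakin (2.04 ± 0.32 and 1.30 ± 0.43), and BDP1 of TFIIIB (1.29 ± 0.26 and 1.43 ± 0.37). SNHG1, the only long non-coding RNA of the 89 and a host of 7 tested snoRNAs, had 1.52 ± 0.23 and 1.44 ± 0.33. Of the 29, 7 were also enriched after puromycin, among them CHD4 (1.14 ± 0.26 after both drugs) with a change of -0.26 ± 0.36 and LAMC1 with a change of -0.22 ± 0.34. None of the 29 was called in the change itself by edgeR.

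The mRNAs of the bait and its partners gave no call. RUVBL1 had 91.49 and 89.56 CPM on GFP beads after CB-6644 plus puromycin, against 89.73 and 88.53 CPM on uncoupled beads. After puromycin it had 102.0 and 86.62 CPM on GFP beads, against 78.71 and 83.03 CPM on uncoupled beads. The bead types overlapped after both drugs, and after puromycin both GFP libraries lay slightly above both uncoupled ones. The change was -0.20 ± 0.47 (95% interval -1.19 to 0.79). RUVBL2 changed by -0.34 ± 0.36 (interval -1.08 to 0.40) and RPAP3 by 0.34 ± 0.60 (interval -0.97 to 1.64).

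The mRNAs of the complexes that R2TP helps to assemble gave no calls with edgeR, where 0.106% of all genes tested were called. Their medians lay between the quartiles of all genes, -0.44 and 0.39. That of the U5 and U4/U6 list lay near the lower quartile, with 4 of 16 genes above zero. Of 11 R2TP and prefoldin-like genes 0 were called (median 0.24), of 9 PIKK kinases and TTT co-chaperones 0 (median -0.18), of 30 INO80, SRCAP and TIP60 subunits 0 (median 0.04), of 33 RNA polymerase genes 0 (median 0.04), of 15 snoRNP proteins and assembly factors 0 (median 0.16) and of 16 U5 and U4/U6 snRNP proteins 0 (median -0.38). At an unadjusted p under 0.05 these lists held 0, 1, 0, 0, 0 and 2 genes, all lower, and DESeq2 called only CD2BP2 among them. TELO2, of the TTT complex, had the largest change of the PIKK list, -1.02 ± 0.58, and MTOR changed by -0.78 ± 0.36, neither called. Among snoRNP genes NOP56 changed by 0.67 ± 0.37 and NOP10 by 0.73 ± 0.37.

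Earlier results of these data showed 21 mRNAs on RUVBL1 or RPAP3 beads in untreated cells, whose libraries are not among those compared here. The median change of the 21 was -0.36. Of these 0 were called by edgeR, with 1 higher and 2 lower at an unadjusted p under 0.05, and DESeq2 called GOLGA4 higher and OBI1 lower. After CB-6644 plus puromycin 1 of the 21 was enriched (GOLGA4), and after puromycin 8 were. Of all genes tested, 0.557% and 9.95% were enriched in these treatments. EP400, a TIP60 subunit, had 268.1 and 210.6 CPM on GFP beads after CB-6644 plus puromycin, against 156.7 and 126.9 CPM on uncoupled beads. After puromycin EP400 had 260.6 and 218.8 CPM on GFP beads, against 103.1 and 109.6 CPM on uncoupled beads. The GFP libraries lay above the uncoupled ones in both treatments, and the change was -0.42 ± 0.50.

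Several lists of abundant mRNAs had medians near or above the upper quartile of all genes, 0.39. Ribosomal protein mRNAs had a median change of 0.37 with 71 of 83 above zero, oxidative phosphorylation mRNAs 0.47 with 35 of 37, and replication-dependent histone mRNAs 0.46 with 40 of 48, with 0 called by edgeR or DESeq2 and 2, 2 and 1 with an unadjusted p under 0.05. The median log2 enrichment of these 3 lists was -0.745, -0.904 and -0.709 after puromycin. After CB-6644 plus puromycin it was -0.369, -0.424 and -0.308. The part of any single library in these medians was not tested. The p53 targets had a median of -0.34 over 21 genes, 1 of them called lower by edgeR and by DESeq2 (CDKN1A). Of all genes tested, edgeR called 0.0313% lower. At an unadjusted p under 0.05, 5 of the 21 were lower and 0 higher, against 1022 lower and 337 higher of all 15976 genes. The 21 HSP90 and HSP70 genes, 12 chaperonin and prefoldin genes, 15 endoplasmic reticulum chaperones, 31 proteasome genes, 12 eIF3 genes, 18 ATF4 targets and 21 immediate early genes had medians of 0.12, -0.17, -0.09, -0.03, 0.06, -0.20 and -0.11. EdgeR called 0 of them, 0, 2, 1, 0, 1, 3 and 1 had an unadjusted p under 0.05, and DESeq2 called 1, the chaperone HYOU1, lower.

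The change was then set against the same change without puromycin, from the other 8 RUVBL1 libraries. That difference, tested for every gene, called 1 of 15976 (0.00626%), while 1246 had an unadjusted p under 0.05 and DESeq2 called 19. Each of the 12 guide RNAs had a change above zero in both settings. SNORD15B changed by 5.32 ± 0.52 with puromycin and 4.62 ± 0.52 without, a difference of 0.71 (95% interval -0.75 to 2.17). SNORD89 changed by 5.66 ± 0.73 and 5.30 ± 0.83, a difference of 0.36 (interval -1.91 to 2.62). SCARNA7 changed by 3.68 ± 0.41 and 3.94 ± 0.40, a difference of -0.27 (interval -1.42 to 0.89). The intervals are wide enough to hold a difference of more than 1 on the log2 scale in these 3.

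The scaRNAs did not all lie on one side. SCARNA28 changed by 4.71 ± 0.35 with puromycin and 2.96 ± 0.34 without, a difference of 1.75 (interval 0.77 to 2.73, edgeR adjusted p of 0.447). SCARNA2 changed by 2.39 ± 0.38 with puromycin and 4.00 ± 0.39 without, a difference of -1.61 (interval -2.71 to -0.51, adjusted p of 0.544). Neither passed the adjusted threshold. SNORD3C had 4.81 ± 0.72 and 2.24 ± 0.69. Over the 134 box C/D snoRNAs tested the median change was 3.37 with puromycin and 4.12 without, and over the 17 scaRNAs 2.50 and 2.96. All changes without puromycin include GFP beads after CB-6644 replicate 2, the library that stood furthest apart. Box C/D snoRNAs summed to 7210 CPM in it, against 2791 CPM in replicate 1 of that group.

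The single call was CHERP, an mRNA whose protein carries a domain that binds the C-terminal tail of RNA polymerase II. CHERP had 155.6 and 157.3 CPM on GFP beads after CB-6644 plus puromycin, against 112.5 and 133.3 CPM on uncoupled beads. With puromycin alone CHERP had 165.0 and 186.9 CPM on GFP beads, against 108.7 and 113.3 CPM on uncoupled beads. Both GFP groups were slightly above their uncoupled groups. The change was -0.32 ± 0.42 with puromycin and 3.59 ± 0.43 without, a difference of -3.90 ± 0.60 (edgeR adjusted p of 0.0194). The call was lost in 7 of 16 fits without 1 library. SCAF4 and SCAF8, whose proteins carry the same kind of domain, changed by 0.39 ± 0.47 and 0.12 ± 0.42 with puromycin and by 3.17 ± 0.48 and 2.85 ± 0.43 without, and their differences were not called (adjusted p-values of 0.447 and 0.32).

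Some mRNAs had a negative change without puromycin and a value nearer zero with it. POLR2B, a subunit of RNA polymerase II, changed by -0.07 ± 0.43 with puromycin and -2.76 ± 0.43 without, EP400 by -0.42 ± 0.50 and -3.05 ± 0.51, and PRPF8 of the U5 snRNP by -0.62 ± 0.50 and -2.62 ± 0.52. The differences of 2.69, 2.63 and 2.00 were not called (edgeR adjusted p-values of 0.338, 0.447 and 0.566). The list of 21 mRNAs recovered in untreated cells, described with EP400 above, had a median change of -1.64 without puromycin. That change subtracts the enrichment in untreated cells. For mRNAs chosen on that enrichment a negative value was therefore favoured in advance, and it is no independent evidence. Of the 5 mRNAs that fell with puromycin, TMC6 changed by -0.67 ± 0.39 and CDKN1A by -1.19 ± 0.36 without it, and none of the 5 differed between the settings at the adjusted threshold.

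**Figure D5:**
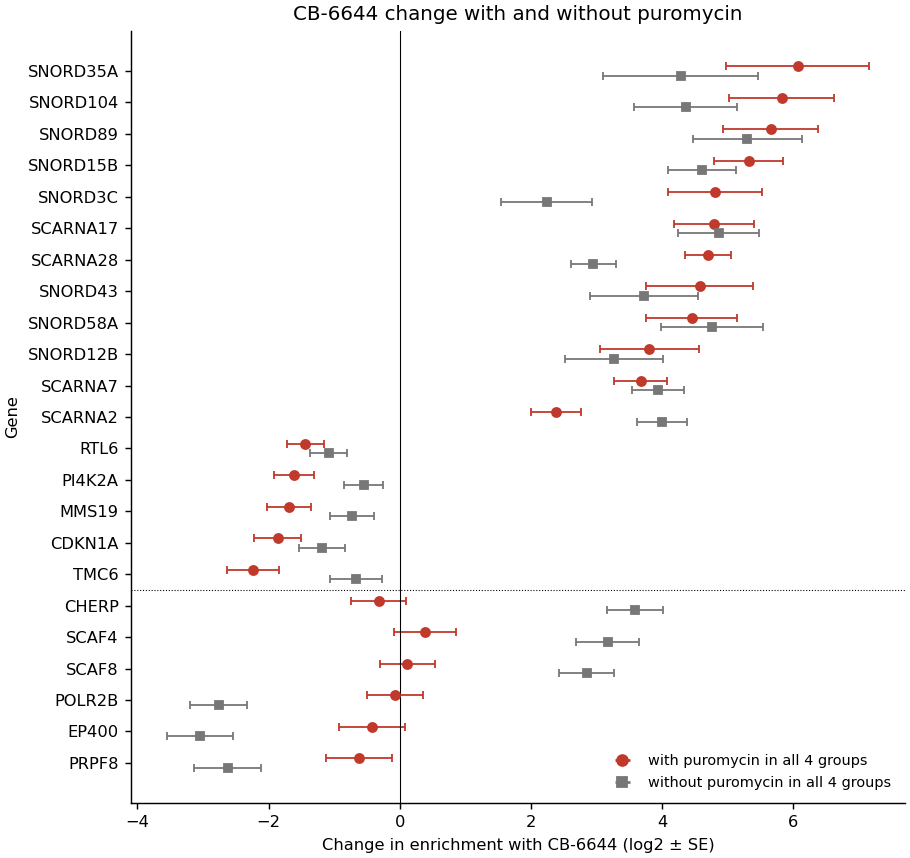
Change in RUVBL1 enrichment with CB-6644 (log2 ± SE) with puromycin in all 4 groups (red circles) and without (grey squares), for the 17 called genes and, under the dotted line, 6 other mRNAs. The 12 guide RNAs lie right of zero in both settings, while CHERP, SCAF4 and SCAF8 lie near zero with puromycin (-0.32, 0.39 and 0.12) and far right of it without (3.59, 3.17 and 2.85).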

How the data were processed

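RNA from bead eluates of 24 libraries was sequenced, 16 of them from the RUVBL1 line and 8 used in the comparison. The authors deposited raw read counts per gene, made with TopHat2 2.1.1 and featureCounts 2.0.3 on hg38 per the submitters' processing notes. The annotation, strand setting and handling of reads with several placements are not given in the sources used here. Libraries were SMART-seq Stranded, per the labels' protocols. The 16 RUVBL1 libraries (8 groups of 2) were fitted together with edgeR 4.0.16 (R 4.3.3, limma 3.58.1): genes kept by filterByExpr, TMM scaling, robust quasi-likelihood test, Benjamini-Hochberg adjustment over all 15976 genes, threshold 0.05. Intervals are 95% and based on the t distribution. CPM values use TMM-scaled depth. Gene IDs (27757 of 27790) were found in NCBI's GRCh38.p14 table, which gave positions and hosts. In data simulated for the comparison (15976 genes), 67, 67 and 66 genes with a mean of at least 5 CPM were changed by 1, 2 and 4 on the log2 scale. Of these, 16.4%, 65.7% and 97% were recovered, with 13 false calls. The false calls made up a larger share of the simulated calls than the nominal 0.05. The simulated level of a gene was otherwise equal in all libraries. These shares may therefore not hold for guide RNAs with few counts in most libraries or with replicates that differ widely.

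Genes are named by rule: RUVBL1, RUVBL2 and RPAP3; in each direction the 12 called genes with the largest change and a mean of at least 5 CPM, filled up by the smallest unadjusted p; up to 4 genes of each of 33 lists by smallest p; and the tested genes of 3 lists. Genes named otherwise are said to be chosen after their values were seen. The members and lists were chosen with earlier results of these data known. Alternatives were DESeq2 1.42.0, other scalings and filters, other sets of libraries, a replicate block and leaving out each library.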

Additional observations from a re-analysis of the deposited data

Results flagged for a closer look

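CHERP was the gene whose change with CB-6644 differed between cells with and without puromycin at the adjusted threshold of edgeR's quasi-likelihood test. The difference, the change with puromycin minus the change without, was -3.905 on the log2 scale (SE 0.60, 95% interval -5.15 to -2.67, Benjamini-Hochberg adjusted p of 0.0194). The change was -0.32 ± 0.42 with puromycin and 3.59 ± 0.43 without. The number of genes called in that contrast was 0 to 911 when 1 library was left out, with 911 reached without GFP beads after CB-6644 replicate 1. The call of CHERP was lost in 7 of 16 fits without 1 library. These were the fits without either replicate of GFP beads after puromycin, either replicate of uncoupled beads after puromycin, replicate 2 of uncoupled beads after CB-6644 plus puromycin, replicate 2 of uncoupled beads after CB-6644, or replicate 1 of uncoupled beads from untreated cells.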

How the results depend on the processing

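Of 531 results for named genes under alternatives, 408 kept direction and side of the threshold, 72 lost the call, 51 gained it and 0 changed direction. SNORD15B, SNORD89, SCARNA7, SCARNA17 and SCARNA28 were called in all 19 alternatives. The number of genes called in the change in enrichment (17) was 127 with DESeq2, 86 with all 24 libraries, 28 without robust dispersion, 145 without the filter, 382 with only the 8 libraries compared and 7 to 24 without 1 library. Without both libraries that stood apart, an alternative chosen after seeing the data, it was 126. For enrichment after CB-6644 plus puromycin (89) the counts were 208, 166, 223 and 333 with DESeq2, all 24 libraries, no filter and only the libraries compared, and 18 to 67 without 1 library. For enrichment after puromycin (2201) they were 4805 with only the libraries compared, 307 to 1356 without 1 library and 3802 without both that stood apart. On GFP beads (308) they were 697, 775, 573 and 663 in that same order, 167 with total-count scaling (111 higher, 56 lower), 25 to 274 without 1 library and 199 without both. Upper-quartile scaling gave 150 higher and 100 lower there, and 1361 higher and 1181 lower after puromycin. On uncoupled beads (1) they were 14, 3, 30 and 694 in that order, 0 with RLE, total-count or upper-quartile scaling, non-robust dispersion or the 5 CPM filter, 0 to 1 without 1 library and 30 without both. For the difference between settings (1) they were 19, 11 and 75 with DESeq2, all 24 libraries and no filter, 0 to 911 without 1 library and 5 without both.

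The median change of box H/ACA snoRNAs was -1.229 to 1.584 without 1 library and -1.211 without both that stood apart. The medians of box C/D snoRNAs (2.83 to 4.22) and scaRNAs (1.91 to 3.27) stayed above zero in every alternative. The cause of these differences was not tested. With the replicate block there were 27, 131, 2559, 456, 0 and 1 calls for the change, enrichment after both drugs, enrichment after puromycin, GFP beads, uncoupled beads and the difference between settings. Deviations of same-numbered libraries correlated at -0.0264 to 0.0525 over the 6 pairs of the 4 groups, so the numbers were not taken to pair libraries. With 2 libraries a group, changes of 1 on the log2 scale were mostly not detectable, and guide RNAs with few counts on uncoupled beads had wide intervals.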

Other observations

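In cells with GFP-tagged RPAP3, which received no CB-6644, the 12 guide RNAs called here were counted on both bead types after puromycin. SNORD15B had 87 and 54 counts on GFP beads, against 143 and 232 counts on uncoupled beads. SCARNA2 had 235 and 287 counts on GFP beads, against 319 and 306 counts on uncoupled beads. SCARNA7 had 146 and 113 counts on GFP beads, against 237 and 249 counts on uncoupled beads. For these 3 the GFP beads held fewer counts. SCARNA28 had 263 to 413 counts over the 4 libraries, with the bead types overlapping, and the other 8 had 0 to 36 counts. These counts are not scaled to depth and were not tested.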
